A study of Mus musculus with 18 samples.

Results

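The comparison described here is that of mouse primary chondrocytes treated with interleukin-6 (IL-6) for 12 h at 21% oxygen against untreated cells of the same time and oxygen level. It takes 6 of the 18 libraries of the series, 3 with IL-6 and 3 without, which form 3 pairs by their replicate number. All cells were labelled as wild-type chondrocytes from cartilage, and both groups were kept at 21% oxygen (normoxia). The treated group received IL-6 at 100 ng/ml in medium without serum. The protocol text also mentions IL-6R, the IL-6 receptor, at the same concentration, while the treatment label names IL-6 alone, so whether the receptor was added cannot be told from the labels. The other 12 libraries are untreated cells at 0 h in normoxia and 3 groups at 1% oxygen (hypoxia), and they enter the fit so that all groups share an estimate of the spread.

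IL-6 is an inflammatory cytokine. It binds its own receptor, which is membrane bound or soluble, and signals through a receptor subunit shared with related cytokines to the JAK kinases and the transcription factor STAT3. In joints it is known as a mediator of inflammation that acts on cartilage, whose only resident cells are the chondrocytes that make and remodel the collagen and proteoglycan matrix. STAT3 is known to activate genes of feedback inhibitors of the same pathway and, in the liver, acute-phase genes.

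The deposited table holds raw read counts for 63244 UCSC identifiers, each of which stands for a transcript. The table gives no gene symbol, and none was assigned here, so the results describe identifiers by their size, direction, level and behaviour in pairs. Several identifiers may belong to 1 gene. For the same reason the labelled cell type was not checked against marker genes, and the gene lists drawn up for the IL-6 response, cartilage matrix and matrix degradation were not used. Of the 63244 identifiers, 13432 passed the filter on low counts and were tested.

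The 3 untreated libraries held 6695412, 8953193 and 8938071 assigned counts for replicates 1 to 3, and the IL-6 libraries 5502257, 7845778 and 9500166. The deeper library was the untreated one in pairs 1 and 2 and the IL-6 one in pair 3. A count of 0 allows up to 3 counts, which is 0.316 CPM (the count scaled to a fixed library total) in the deepest of these libraries and 0.545 in the shallowest, for counting error only. Both libraries of pair 1 were sequenced in lane 2 and both of pair 3 in lane 7, whereas pair 2 had its untreated library in lane 3 and its IL-6 library in lane 6. The share of uniquely aligned reads outside annotated features was 16.6% ± 4.23 (SD, n = 3) untreated and 18.1% ± 4.45 (SD, n = 3) with IL-6. It was higher with IL-6 in 3 of 3 pairs, and the mean difference was 1.52 percentage points ± 1.27 (SD over 3 pairs). The exact permutation test over pairs, two-sided, gave p = 0.25, which is the lowest value possible with 3 pairs, and 0.417 after adjustment over 5 measures. The ambiguous share, of reads that overlap several identifiers, was 48.1% ± 2.18 (SD, n = 3) and 47.2% ± 2.41 (SD, n = 3). For overlapping identifiers the counts leave out such reads, so their values are uncertain. Alignments that were not unique numbered 2.89 ± 1.25 (SD, n = 3) per assigned count untreated and 2.15 ± 0.950 (SD, n = 3) with IL-6. This ratio was lower with IL-6 in 3 of 3 pairs, with p = 0.25 by the same permutation test and 0.417 after adjustment. It was also lower with IL-6 in each of the 3 hypoxia pairs, by a mean difference of -0.880 ± 0.602 (SD over 3 pairs). The part of these read classes in the results was not tested.

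Among called identifiers, more rose with IL-6 than fell, and the rises were larger. With the pairs in the model, 398 identifiers were called, which is 2.96% of those tested, by edgeR's quasi-likelihood test at a Benjamini-Hochberg adjusted p under 0.05. Of these, 272 rose (2.03% of those tested) and 126 fell (0.938%). The excess of rises was smaller at an unadjusted p under 0.05 by the same test, where 883 rose and 759 fell. Without the pairs 27 were called (0.201%), all of them raised and all among the 272. The median change was 0.88 on the log2 scale among the raised and -0.65 among the lowered, and 0.00033 over all identifiers tested. These medians describe identifiers chosen for their change. In bulk RNA, a change in the number of cells that carry a transcript and a change in RNA per cell cannot be told apart.

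Large changes were mostly rises. Of the 272 raised identifiers, 110 rose at least 2-fold, 37 of them at least 4-fold and 8 at least 8-fold. Of the 126 lowered, 22 fell at least 2-fold, 1 at least 4-fold and 0 at least 8-fold. Rises thus made up 68.3% of all calls and 83.3% of those of at least 2-fold. The remaining 266 calls, 66.8% of the total, were below 2-fold, and 113 of these were below 1.5-fold. For comparison, 266 identifiers had a fitted rise of at least 2-fold and 112 a fitted fall of that size whatever their p-value.

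**Figure D1:**
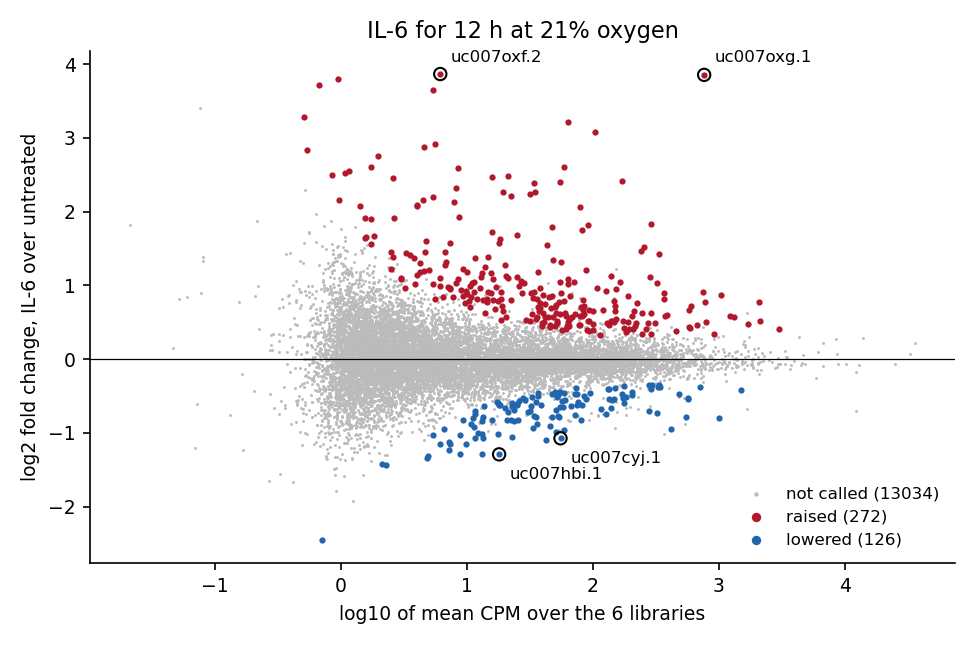
Log2 fold change (IL-6 over untreated) against the log10 of mean CPM over the 6 libraries, with 1 point per tested identifier. Red points are the 272 raised and blue points the 126 lowered identifiers, and circles mark the 4 identifiers named in the text. The red points reach a log2 fold change of 3.87, whereas only 1 of the 126 blue points lies below -2.

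Identifiers were called at low and at high levels. The mean over the 6 libraries ran from 0.509 to 2995 CPM among raised and from 0.704 to 1492 CPM among lowered identifiers, with medians of 38.4 and 40.6 CPM, against 5.80 CPM over all tested. The share called grew with the level. It was 0.785% of the 892 identifiers under 1 CPM (7 calls) and 1.10% of the 6933 at 1 to 10 CPM (76 calls). It was 5.47% of the 3927 at 10 to 100 CPM (215 calls), 5.84% of the 1559 at 100 to 1000 CPM (91 calls) and 7.44% of the 121 at 1000 CPM or more (9 calls). The precision grew along with it, since the median standard error of the log2 fold change fell from 0.59 in the lowest of these ranges to 0.09 in the highest. The part of precision in the share called was not tested. The smallest called change was 2.16 on the log2 scale under 1 CPM and 0.33 at 100 to 1000 CPM.

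**Figure D2:**
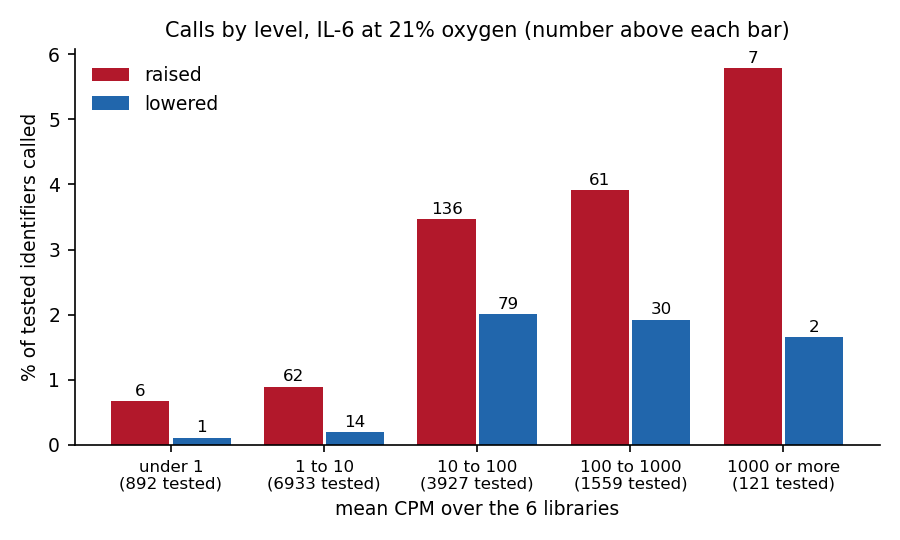
Percentage of tested identifiers that were raised (red) or lowered (blue) in each range of mean CPM over the 6 libraries, with the number of identifiers above each bar. The share called was 0.785% under 1 CPM and 7.44% at 1000 CPM or more, and raised identifiers outnumbered lowered ones in every range.

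Among abundant identifiers the changes were modest. None of the 9 called at 1000 CPM or more changed 2-fold, and their median absolute change was 0.57 on the log2 scale. At 100 to 1000 CPM, 11 of the 91 calls were of at least 2-fold and all 11 were rises. The lowered identifier with the highest level among those that fell at least 2-fold had a mean of 55.6 CPM, against 767.7 CPM for the raised one.

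The untreated level of strongly raised identifiers was also examined. Of the 37 raised at least 4-fold, 14 had an untreated mean under 1 CPM, 13 a mean of 1 to 10 CPM and 10 a mean of 10 to 100 CPM. Over all 13432 tested, 1040 had an untreated mean under 1 CPM and 6792 a mean of 1 to 10 CPM. A mean under 1 CPM was thus a larger share of the 37 than of all tested, and a mean of 1 to 10 CPM a smaller one. The median untreated level of these 37 was 1.59 CPM, against 5.79 CPM over all tested, and the median with IL-6 was 10.1 CPM. In 5 of them no untreated library had more than 3 counts, so their fitted fold changes depend on the prior count and are not bounds. None of the 37 had an untreated mean of 100 CPM or more, and 6 reached that level with IL-6. An identifier that is low in the untreated libraries can pass the filter on low counts through its IL-6 libraries. The low untreated levels of these 37 may thus follow in part from the filter and the cut on fold change.

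Summed over identifiers, the raised set held 2.82%, 2.54% and 2.90% of scaled counts in the untreated libraries of replicates 1 to 3. With IL-6 it held 4.71%, 4.33% and 4.60%. The lowered set held 1.70%, 1.65% and 1.65% untreated and 1.09%, 1.17% and 1.12% with IL-6. These sums show the size of the sets in the libraries that chose them, and no test is attached to them. The called sets thus held a few percent of the scaled counts in every library, and these shares are not the size of the change.

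Among calls at a mean level of 5 CPM or more, uc007oxf.2 had the largest rise. Its level was 0.616, 0.551 and 1.05 CPM in the untreated libraries of replicates 1 to 3, from 4, 5 and 10 counts. With IL-6 it was 14.5, 11.0 and 9.26 CPM, from 79, 87 and 91 counts. Every IL-6 library stood above every untreated one, in an identifier that was chosen for its rise and may have passed the filter through IL-6 libraries. This is a log2 fold change of 3.87 with an SE of 0.37 (edgeR adjusted p = 1.50e-08). At 0 h in normoxia the identifier was at 0.690 CPM ± 0.443 (SD, n = 3), against 0.738 CPM ± 0.270 (SD, n = 3) in the untreated libraries at 12 h.

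The most abundant identifier among those raised at least 2-fold was uc007oxg.1. It stood at 116, 76.2 and 99.6 CPM untreated and at 1556, 1915 and 844 CPM with IL-6. The 2 groups did not overlap, and pair 3 had the smallest rise. The log2 ratios within pairs were 3.75, 4.65 and 3.08, which gave a fitted value of 3.85 with an SE of 0.32 (edgeR adjusted p = 0.000218). With only the 6 compared libraries in the paired fit its adjusted p was 0.109 by edgeR, at a log2 fold change of 3.82. It supplied 3.30%, 4.42% and 1.83% of the summed level of the raised set in the IL-6 libraries of replicates 1 to 3, against at most 0.410% in the untreated ones. The identifiers uc007oxf.2 and uc007oxg.1 stand in neighbouring rows of the table, and the table does not say whether they belong to 1 gene.

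Among calls at a mean level of 5 CPM or more, the largest fall was that of uc007hbi.1. A larger called fall, of -2.44 on the log2 scale, lay under 1 CPM and outside the rule for naming. The level of uc007hbi.1 was 24.8, 13.6 and 37.0 CPM in the untreated libraries of replicates 1 to 3 and 11.9, 3.17 and 18.1 CPM with IL-6. The groups overlapped, since replicate 2 was lowest and replicate 3 highest in both, while each IL-6 library was below its own partner. The fitted log2 fold change of -1.29 had an SE of 0.25 (edgeR adjusted p = 0.00436). Without the replicate block the SE was 0.85 and the identifier was not called (edgeR adjusted p = 1.00), nor was it with 1 block term per number across oxygen conditions (adjusted p = 0.0809 by edgeR).

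The most abundant of those lowered at least 2-fold was uc007cyj.1. It stood at 92.4, 49.2 and 83.4 CPM untreated and at 31.6, 21.8 and 54.9 CPM with IL-6. The IL-6 library of replicate 3 lay above the untreated library of replicate 2, so the groups overlapped, and the fall held in 3 of 3 pairs. The fitted log2 fold change of -1.07 had an SE of 0.17 (edgeR adjusted p = 0.00036), and without the block the SE was 0.46 and the edgeR adjusted p 1.00.

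**Figure D3:**
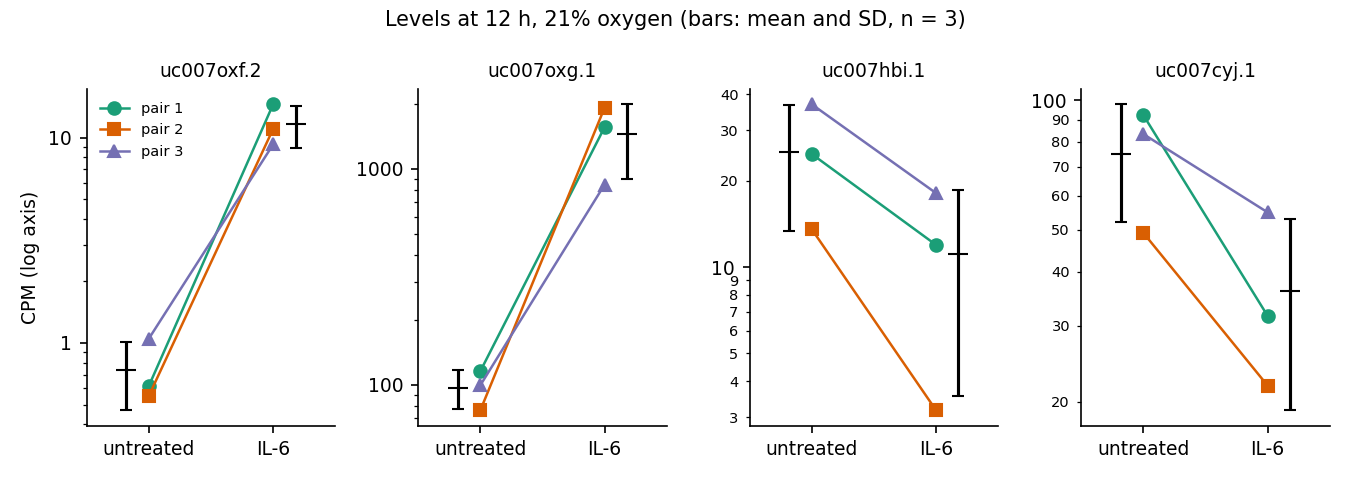
CPM (log axis) of the 4 named identifiers in the untreated and IL-6 libraries at 12 h and 21% oxygen, with lines joining the libraries of a pair and bars giving the mean and SD over 3 libraries. Both raised identifiers are separated between groups, whereas uc007hbi.1 and uc007cyj.1 overlap between groups and fall in each pair.

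The named identifiers can be set beside the next largest changes. Calls at a mean level of 5 CPM or more that went the same way in every pair numbered 233 raised and 121 lowered. The 12 largest rises had log2 fold changes from 2.40 to 3.87, with SE from 0.12 to 0.39. In all 12 the groups did not overlap, and all 12 were called without the block as well. The 12 largest falls were between 1.07 and 1.29 in size on the log2 scale, with SE from 0.14 to 0.29. The groups did not overlap in 10 of these 12, and 0 were called without the block by edgeR. Over all tested identifiers 7.24% had groups that did not overlap (973). Among the raised the number was 179 of 272, and among the lowered 46 of 126, in sets chosen for their change.

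Libraries of a group differed from each other by more than the pairs differed in their ratio. Among lowered identifiers the median SD of log2 CPM within a group was 0.46, while the median SD of the log2 ratio over the 3 pairs was 0.17. The corresponding values were 0.36 and 0.21 among raised identifiers and 0.40 and 0.27 over all tested. For a ratio of unpaired libraries with these group SDs, the SD would be 0.65, 0.51 and 0.56. The called sets favour a small spread over pairs, since the paired test chose them.

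Pair consistency was read from pairs that the calls had not used. With pair 1 left out, 194 identifiers were called, and 194 of them had the same sign in pair 1, against 60.3% of all tested identifiers. With pair 2 left out, 203 were called and 200 had the same sign in pair 2, against 60.4% of all tested. With pair 3 left out, 232 were called and 227 had the same sign in it, against 59.9%. The 8 exceptions were 3 raised identifiers in pair 3 and 5 lowered ones, 3 in pair 2 and 2 in pair 3. All these fits kept the 0 h and hypoxia libraries, and all 3 left-out pairs belong to this experiment.

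The size of the change in the left-out pair can be set beside the fitted size. For identifiers raised without pair 1 the median log2 ratio in pair 1 was 1.05, where the fit without it gave 1.01. The medians were 0.99 against 1.04 for pair 2 and 0.84 against 1.05 for pair 3. For lowered identifiers they were -0.84 against -0.74 in pair 1, -0.55 against -0.88 in pair 2 and -0.56 against -0.76 in pair 3. No test of these differences was made.

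The fit without pair 2, given above, compares only pairs 1 and 3, each sequenced within 1 lane. Its 203 calls were 137 higher and 66 lower, and 188 of them were among the 398, which used the same libraries of these pairs. That fit kept the 0 h and hypoxia libraries, which came from several lanes, so it is not a separate check of the lane. Pair 2, whose libraries came from different lanes, lay between the other pairs by the median over all raised identifiers. The median log2 ratio of the 272 was 0.86 in pair 1, 0.85 in pair 2 and 0.82 in pair 3. Among the 126 lowered it was -0.73, -0.60 and -0.64, with the smallest fall in pair 2. For the 132 calls of at least 2-fold, rises and falls together, it was 1.28, 1.43 and 1.19, highest in pair 2. The median absolute log2 ratio of these 132 was 1.45, 1.45 and 1.26. The part of the lane in these values was not tested. Across the 5607 identifiers at a mean level of 10 CPM or more, the log2 ratios had a Pearson correlation of 0.659 between pairs 1 and 2, 0.569 between pairs 1 and 3 and 0.542 between pairs 2 and 3. Spearman's values were 0.439, 0.390 and 0.399. Over all 13432 identifiers Pearson's values were 0.262 to 0.304. These are descriptions across identifiers, which are not independent and may include several transcripts of 1 gene.

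**Figure D4:**
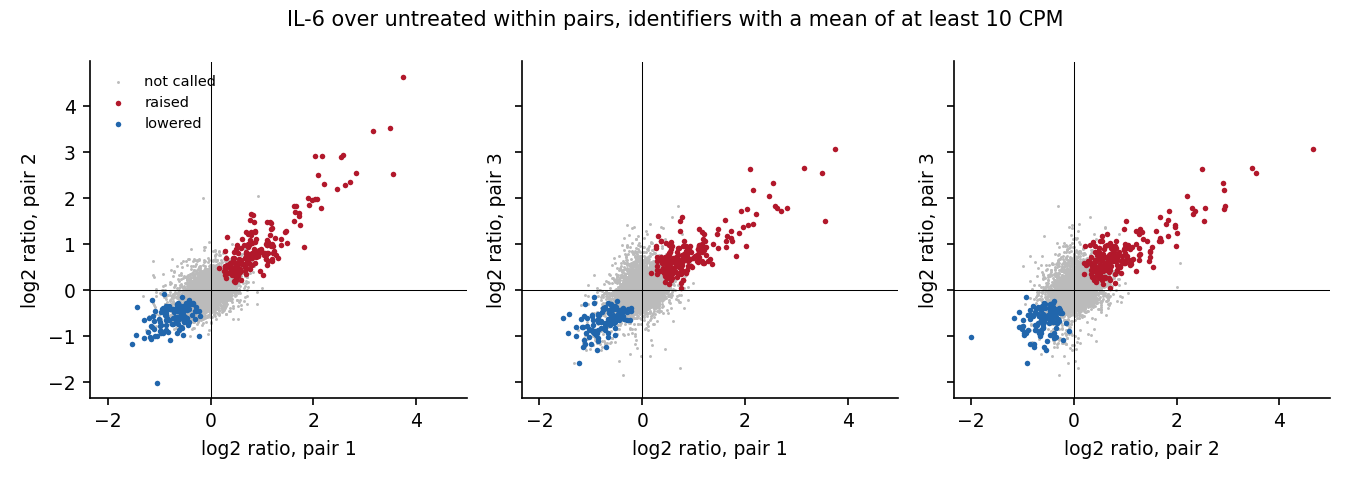
Log2 ratio of IL-6 over untreated in 1 pair against another, for the 5607 identifiers at a mean level of 10 CPM or more. Red points are raised, blue points lowered and grey points not called, and the called points lie in the quadrants where both pairs have the same sign. All 398 calls had the same sign in all 3 pairs, against 37.7% of all tested, and the paired test that called them used these pairs.

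A smaller core did not depend on any single pair. Of the 398 identifiers, 132 were also called in all 3 fits that left out a pair, 107 raised and 25 lowered, and the smallest change among them was 0.47 on the log2 scale. Of the 132 identifiers called at least 2-fold, 71 belonged to this core. At the other end, 119 of the 398 were called in none of those 3 fits, 73 raised and 46 lowered. Leaving out single libraries gave 225 calls without untreated replicate 1, 227 without untreated replicate 2, 249 without IL-6 replicate 1 and 259 without IL-6 replicate 3, and 276 without either of the other two. In each of these fits uc007oxf.2, uc007oxg.1, uc007hbi.1 and uc007cyj.1 were called.

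The number of calls depended on the libraries in the fit. With the 9 normoxia libraries alone 588 were called, 355 higher and 233 lower, and with the 6 compared libraries alone 741, 426 higher and 315 lower. These hold 390 and 395 of the 398. Without the 3 hypoxia libraries of replicate 3, which were sequenced in lane 8, 564 were called. This alternative was chosen after seeing the data. DESeq2 called 407, of which 369 were shared. Raised identifiers outnumbered lowered ones in every setting run, with 53.9% raised as the lowest share, when no filter on low counts was used.

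**Figure D5:**
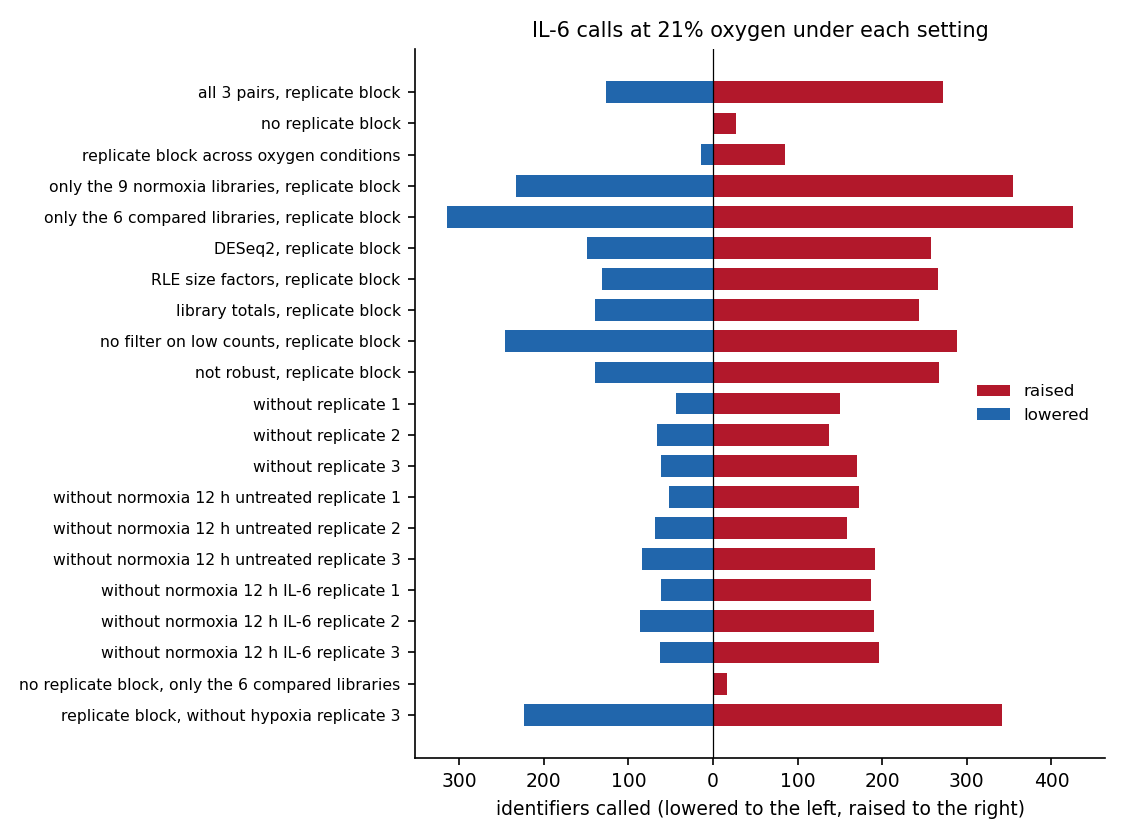
Number of identifiers called as raised (red, to the right) and lowered (blue, to the left) for IL-6 at 21% oxygen under each setting of the fit. The numbers run from 16 raised and 0 lowered, without the block in the 6 compared libraries, to 426 raised and 315 lowered with the block in the same libraries.

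The same identifiers were looked up at 1% oxygen. The contrast at 21% oxygen compares none of the hypoxia libraries, but they share the filter, the scaling and the estimate of the spread that decided which identifiers were called. There 266 of the 272 raised identifiers and 118 of the 126 lowered ones had the same sign, against 58.8% of all tested. Of the raised, 199 were also called as raised in hypoxia, where 3.74% of all tested were. Of the lowered, 63 were called as lowered, where 1.68% of all tested were, and 1 was called as raised. The median log2 change of the raised set was 0.88 in normoxia and 0.84 in hypoxia. For the lowered set it was -0.65 and -0.48, and the normoxia values are those that chose the sets.

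The test of the difference between oxygen levels called few identifiers. With the replicate block, edgeR's test of the interaction between IL-6 and oxygen called 6 identifiers (0.0447% of those tested), and the unadjusted p was under 0.05 for 1078. Without the block edgeR called 0, and its unadjusted p was under 0.05 for 167, and DESeq2 with the block called 10. The edgeR test with the block called 0 without pair 1, 1 without pair 2 and 1 without pair 3, so its calls depended on each pair. Of the 6, 2 were also called in normoxia. One of these, the eleventh-ranked rise, was at 53.9 CPM ± 6.95 (SD, n = 3) untreated and at 288 CPM ± 26.0 (SD, n = 3) with IL-6 at 21% oxygen, a log2 fold change of 2.42, and its log2 fold change at 1% oxygen was 3.63 (edgeR interaction adjusted p = 0.00121). The other fell by 0.36 on the log2 scale at 21% oxygen and rose by 0.35 at 1% oxygen (edgeR interaction adjusted p = 0.036).

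For the 4 named identifiers the interaction was not called. The log2 fold change of uc007oxf.2 was 2.85 (SE 0.37) at 1% oxygen, and the normoxia response was higher by 1.01 (SE 0.61, edgeR adjusted p = 0.721). That of uc007oxg.1 was 3.39 (SE 0.32), with a difference of 0.46 (SE 0.42, edgeR adjusted p = 0.848). For uc007hbi.1 it was -1.68 (SE 0.30), with a difference of 0.39 (SE 0.40, edgeR adjusted p = 0.863). For uc007cyj.1 it was -0.91 (SE 0.17), with a difference of -0.16 (SE 0.24, edgeR adjusted p = 0.921). The standard errors leave room for differences of the sizes given, and a p that misses the threshold does not show equal responses.

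Some of the called identifiers stood next to each other in the table. A raised identifier had another raised one in the next or previous row in 27 of 272 cases (9.93%), and a lowered one had a lowered neighbour in 2 of 126 (1.59%). The sets differ in size and the difference between these shares was not tested. Over all tested identifiers 2.03% were raised and 0.938% lowered, and a row can have a neighbour on either side. The share of neighbours to be expected from these values was not worked out. Neighbouring rows may be transcripts of 1 gene, so the number of genes raised is smaller than or equal to the number of identifiers.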

How the data were processed

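RNA sequencing libraries (ribosomal RNA depleted, single-end reads of 50 bp) were made from 18 samples, 3 in each of 6 groups. Reads were aligned to mm10 with TopHat2 and counted with HTSeq, per the submitters' processing notes, with versions and strand setting not given in the sources used here; DESeq2 is also named there. The deposited table holds raw counts, with no normalization by the authors. The 5 HTSeq summary rows were left out of totals and tests.

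The filter was filterByExpr with the 6 groups. It kept at least 99.5% of each library's assigned counts. Counts were scaled by TMM and tested in edgeR 4.0.16 (R 4.3.3) with the robust quasi-likelihood F-test on all 18 libraries. The model had 1 coefficient per group and the replicate number as a block within each oxygen condition, with 8 residual degrees of freedom. The standard error (SE) is the size of the log2 fold change over the root of its F value. Ratios within pairs were taken on log2 CPM, prior count 2. The script was tested on simulated data.

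The replicate numbers are used as pairs because the comparison was defined as paired by replicate number, a choice made with earlier results of these data known. Same-numbered untreated and IL-6 libraries deviated together from their group means across identifiers, with correlations of 0.694, 0.661 and 0.502 for pairs 1 to 3. Different numbers gave -0.544 to -0.0311. Deviations from the mean of 3 libraries sum to 0 within a group, so positive same-number values push the others below 0. The negative values are therefore not separate support for the pairs. The labels do not say what a number marks, so the p-values rest on a spread between samples that may be technical only. Alternatives changed the block, the libraries fitted, the scaling, the filter, the tool (DESeq2 1.42.0) and the libraries left out.

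The identifiers printed are, among called ones with a mean of at least 5 CPM and the same direction in 3 pairs, those with the largest change and, among changes of at least 2-fold, the highest level, in each direction. The comparison, the tests and this rule were chosen with earlier results of these data known.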

Additional observations from a re-analysis of the deposited data

Results flagged for a closer look

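The IL-6 response differed between 21% and 1% oxygen for 6 identifiers, by the interaction test in edgeR with the replicate block, which called 0 without the block. Of the 6, 2 had a higher and 4 a lower log2 fold change in normoxia.

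Reads outside annotated features took a larger share of uniquely aligned reads with IL-6 in each of the 3 normoxia pairs, where the mean difference was 1.52 percentage points ± 1.27 (SD, n = 3). In each of the 3 hypoxia pairs the share was smaller with IL-6, and the mean difference there was -2.93 ± 1.93 (SD, n = 3). The ambiguous share differed on average by -0.845 ± 0.523 (SD, n = 3) percentage points in normoxia and by 2.01 ± 1.18 (SD, n = 3) in hypoxia, again opposite in every pair. Both stand out because all pairs of one oxygen condition moved against all pairs of the other, and the difference was not tested. They are shares of the same reads, so they are not separate results.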

How the results depend on the processing

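Without the replicate block 27 identifiers were called, 27 raised and 0 lowered, all 27 at least 2-fold, and edgeR's unadjusted p was under 0.05 for 414. In the 6 compared libraries without the block, chosen after seeing the data, 16 were called, 16 raised and 0 lowered, all 16 at least 2-fold. With the replicate block across oxygen conditions 99 were called, 85 raised and 14 lowered, 73 of them at least 2-fold. With the block, 741 were called in the 6 compared libraries (426 raised, 315 lowered), and 233 were lowered in the 9 normoxia libraries, 246 with no filter on low counts and 223 without hypoxia replicate 3. Leaving out a pair or a single library gave 194 to 276 calls, 137 to 196 raised, 44 to 86 lowered. The count of at least 2-fold ran from 84 to 123. The interaction called 0 without the block or with the block across oxygen conditions, 10 with DESeq2, 2 with library totals, 73 with no filter, 2 without the robust option, and 0 to 2 when a pair or library was left out. The cause of these differences was not tested. The counts of calls in each range of CPM without TMM scaling and the sign counts at prior counts of 0.5 and 5 stayed within 1.5 times the reported ones. Neither check made new calls, so little movement was possible. The first sorted the same calls by unscaled level, and the second changed only the prior count of the ratios. Over 20 settings, uc007oxf.2 was called in 20, uc007oxg.1 in 19, uc007hbi.1 in 17 and uc007cyj.1 in 18, with the same direction in each. The median standard error of the log2 fold change was 0.34 at 1 to 10 CPM and 0.14 at 10 to 100 CPM, and depth itself was not varied.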
